A study of Mus musculus with 9 samples.

Results

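The genes that write, maintain and remove methylation of cytosine in DNA were followed in mouse embryonic stem (ES) cells with raised or lowered Yap1. They are Dnmt1, Uhrf1, Dnmt3a, Dnmt3b, Dnmt3l, Tet1, Tet2 and Tet3, chosen by name, and all 8 were found among the 18504 named genes of the deposited table. Dnmt3l was put on the list because it was already known to be lower in these libraries when Yap1 is reduced. Its values in the knockout-labelled and knockdown libraries, and those of the other 7 genes in the same comparisons, are therefore described without a test.

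The 9 libraries were made from polyadenylated RNA of J1 cells, an ES line from 129S4/SvJae mice, between passages 5 and 7. The 7 undifferentiated libraries are a Yap1 overexpression library (Yap1_OE) with its control BirA, the libraries labelled as Yap1 knockouts (Yap1_KO1 and Yap1_KO2) with their control ESC, and a Yap1 knockdown (Yap1_KD1) with the library named Control. The 2 differentiated libraries are a control (dESC_control) and a Yap1 knockdown (dESC_Yap1_KD1). How the cells were differentiated and for how long, what was edited in the knockout-labelled cells, whether these are separate clones, and which reagent made the knockdown are details not given in the sources used here. Yap1, the transcriptional coactivator of the Hippo pathway, stood at 4.55 FPKM in Yap1_KD1 against 37.4 in Control and at 12.5 in dESC_Yap1_KD1 against 78.0 in dESC_control. It was 139 in Yap1_OE against 46.7 in BirA. The libraries labelled Yap1_KO1 and Yap1_KO2 kept 57.3 and 27.6 FPKM of Yap1 RNA against 65.4 in ESC, so directions drawn from them are directions of libraries that carry that label. FPKM are fragments per kilobase of transcript, scaled to the number of mapped fragments, so levels of different genes can be compared.

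DNMT3A and DNMT3B are the enzymes that set new methyl groups on cytosines that precede a guanine (CpG sites). DNMT3L has no catalytic activity of its own and binds both enzymes as a cofactor; it is abundant in ES cells and germ cells. DNMT1 copies the pattern to the new strand after replication, and UHRF1 brings it to hemimethylated sites. The TET enzymes oxidise methylcytosine, the first step of active demethylation, and TET1 and TET2 are the main ones in ES cells. When ES cells leave the naive state for the epiblast state, Dnmt3b is known to be switched on and Tet2 to be switched off.

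Since these genes act on CpG sites, the DNA in front of the genes whose RNA differed most is shown, with each CpG in capitals. The sequences are the 250 bases before each RefSeq start on GRCm38.p6, 5′ to 3′ on the gene's strand; the deposited table used the build mm9 and has no coordinates.
Dnmt3l, the first start (chr10:78042037-78042286, + strand): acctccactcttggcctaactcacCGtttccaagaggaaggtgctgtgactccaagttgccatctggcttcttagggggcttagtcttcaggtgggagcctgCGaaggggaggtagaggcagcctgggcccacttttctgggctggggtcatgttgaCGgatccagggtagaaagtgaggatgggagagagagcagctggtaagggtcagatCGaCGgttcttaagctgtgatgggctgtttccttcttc
Dnmt3l, the second start (chr10:78049592-78049841, + strand): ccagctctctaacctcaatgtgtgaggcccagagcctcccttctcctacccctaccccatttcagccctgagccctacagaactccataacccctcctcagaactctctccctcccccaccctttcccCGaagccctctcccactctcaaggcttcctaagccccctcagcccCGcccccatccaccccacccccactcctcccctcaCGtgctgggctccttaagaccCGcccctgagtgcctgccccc
Dnmt3l, the third start (chr10:78055085-78055334, + strand): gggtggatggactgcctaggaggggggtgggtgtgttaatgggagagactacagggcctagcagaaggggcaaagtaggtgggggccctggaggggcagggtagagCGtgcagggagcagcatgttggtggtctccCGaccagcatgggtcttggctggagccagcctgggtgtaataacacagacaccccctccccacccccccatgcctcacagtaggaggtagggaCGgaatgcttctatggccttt
Dnmt3b (chr2:153649199-153649448, + strand): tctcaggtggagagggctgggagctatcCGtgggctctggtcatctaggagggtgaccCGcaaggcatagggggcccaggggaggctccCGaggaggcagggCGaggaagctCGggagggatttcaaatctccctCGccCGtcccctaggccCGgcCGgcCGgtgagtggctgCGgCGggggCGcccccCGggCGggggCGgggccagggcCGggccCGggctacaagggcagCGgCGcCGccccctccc
Tet2 (chr3:133544391-133544640, - strand): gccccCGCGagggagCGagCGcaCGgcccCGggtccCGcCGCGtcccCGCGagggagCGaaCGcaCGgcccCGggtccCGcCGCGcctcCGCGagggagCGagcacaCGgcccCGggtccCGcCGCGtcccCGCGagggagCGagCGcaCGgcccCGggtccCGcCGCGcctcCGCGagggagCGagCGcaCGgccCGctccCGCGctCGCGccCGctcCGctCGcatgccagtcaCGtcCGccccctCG
The 3 windows of Dnmt3l hold 5, 4 and 3 CpG sites, with observed over expected ratios of 0.272, 0.250 and 0.135. The median over 32851 such windows of all genes was 0.374. The Dnmt3b window holds 21 CpG sites (ratio 0.608) and the Tet2 window 51 (ratio 1.19), higher than 99.3% of windows. The letters GGAATG, which TEAD factors can bind, were searched on both strands. They occur 1 time in the window of the third Dnmt3l start and 0 times in the other 4 windows shown, while 12.6% of all windows hold them on either strand. The window of the first Uhrf1 start, not shown here, also holds them 1 time, so they are not particular to Dnmt3l among the members. Gene-level values do not show which start was used.

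The effective depth was estimated only roughly, from steps between low values; Control was 2.43 times as deep as Yap1_KO1. On this estimate the members rested on about 69.7 to 327 fragments for Tet3, about 185 to 3595 for Tet2 and more for the others, so counting error alone was at most 11.98% for Tet3 and 7.35% for Tet2. Markers of ES cells (8 genes, Pou5f1 among them) summed to 4515 to 6527 FPKM in the undifferentiated libraries and to 2165 and 3267 in the differentiated ones. Dppa5a carried most of that difference (576 in dESC_control against 2947 in Control, 881 in dESC_Yap1_KD1 against 3346 in Yap1_KD1). Pou5f1 differed little (927 against 1138 and 1115 against 1261). Utf1 was higher in dESC_Yap1_KD1 than in Yap1_KD1 (722 against 362). Of 8 feeder fibroblast markers, Col3a1 was at most 0.0399 FPKM and Dcn and Lum were listed at 0 in every undifferentiated library. Their sum, mostly Thy1, was 39.7 and 32.2 in Yap1_KO1 and Yap1_KO2 and 6.51 to 26.6 in the other undifferentiated libraries. Strandedness is not given, but Dnmt3aos, the antisense neighbour of Dnmt3a, was at most 0.273 FPKM.

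**Figure D1:**
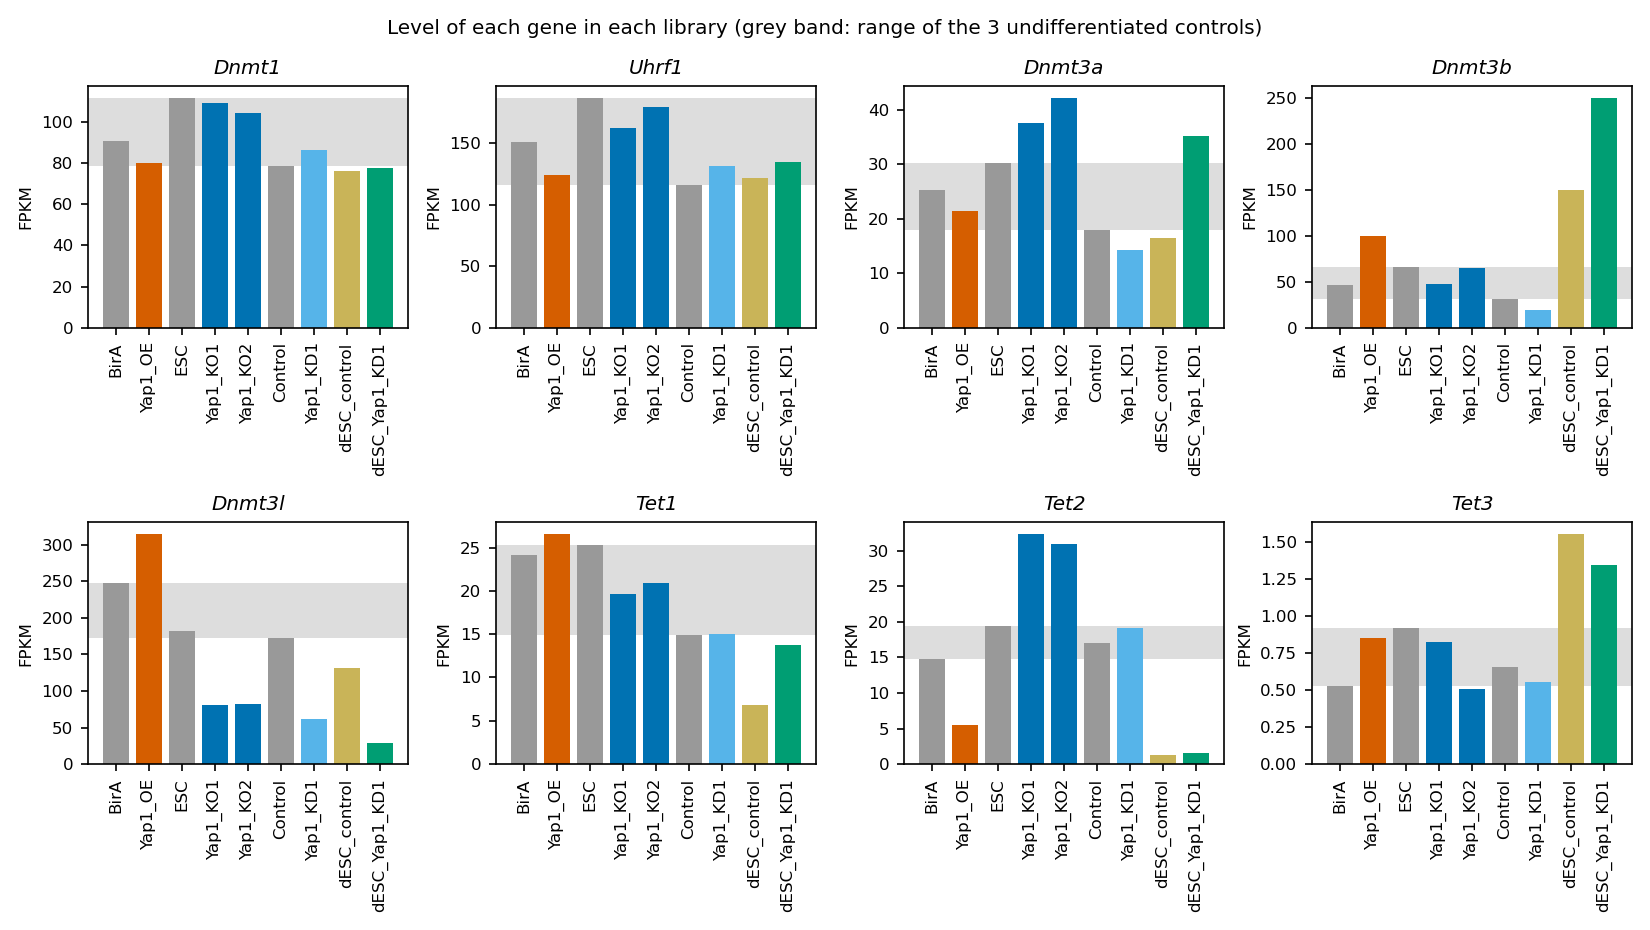
Level of each of the 8 genes (FPKM, linear axis from 0, 1 panel a gene) in each of the 9 libraries; each bar is 1 library and the grey band spans the 3 undifferentiated controls BirA, ESC and Control. Dnmt3l lies under the band in Yap1_KO1, Yap1_KO2, Yap1_KD1 and both differentiated libraries, and Tet2 lies at 1.34 and 1.53 in the differentiated ones.

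In the undifferentiated controls Dnmt3l and Uhrf1 had the highest levels of the 8 genes. Dnmt3l ran from 172 to 247 FPKM over BirA, ESC and Control, and Uhrf1 from 116 to 187, so these ranges overlapped. Dnmt1 followed at 78.7 to 112, Dnmt3b at 31.1 to 65.8 and Dnmt3a at 17.9 to 30.3. Tet1 (14.9 to 25.3) overlapped with Dnmt3a and with Tet2 (14.8 to 19.4), and Tet3 stood far below at 0.528 to 0.918. These 3 libraries, none of them labelled for a change of Yap1, give a view of how much undifferentiated cells vary. They are the controls of different comparisons, so differences between those experiments may be part of their spread. Another view comes from Yap1_KO1 and Yap1_KO2, the only libraries that share a label, whose values are given below. The highest over the lowest control was 1.42 for Dnmt1, 1.62 for Uhrf1, 1.69 for Dnmt3a, 2.12 for Dnmt3b, 1.44 for Dnmt3l, 1.69 for Tet1, 1.31 for Tet2 and 1.74 for Tet3. Dnmt3b thus differed between unperturbed controls by more than the 2-fold mark used below.

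The maintenance pair stayed within the range of the controls in all 4 undifferentiated libraries with altered Yap1 or a knockout label. Dnmt1 stood at 80.3 FPKM in Yap1_OE against 90.6 in BirA, at 109 and 104 in Yap1_KO1 and Yap1_KO2 against 112 in ESC, and at 86.6 in Yap1_KD1 against 78.7 in Control. In differentiated cells it was 77.6 under knockdown against 76.3. Every one of these differences was smaller than that between ESC and Control. Uhrf1 stood at 124 against 151 under overexpression, at 163 and 179 against 187 in the knockout-labelled libraries, at 131 against 116 under knockdown, and at 135 against 121 under knockdown in differentiated cells. Each perturbed library lay within the range of the undifferentiated controls for Uhrf1.

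Dnmt3l, the catalytically inactive cofactor, was lower in all 4 libraries with reduced Yap1 or a knockout label. It stood at 81.5 and 81.9 FPKM in Yap1_KO1 and Yap1_KO2 against 182 in ESC, which is 44.8% and 45.1% of the control. Under knockdown it was 61.0 against 172 (35.4%), and in differentiated cells 28.8 against 132 (21.9%). The knockout-labelled libraries lay close together, and they and Yap1_KD1 lay under the lowest of the 3 undifferentiated controls. On the scale of log2(FPKM + 1), used for all log2 ratios here, the ratios were -1.15 and -1.14, -1.48 and -2.16. In the overexpression library Dnmt3l was at 315 FPKM against 247 in BirA, a log2 ratio of 0.35, which is smaller than the 0.52 between BirA and Control.

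Genes at least 2-fold lower in both knockout-labelled libraries made up 0.979% (and higher ones 0.191%) of 11538 genes at 1 FPKM or more, and Dnmt3l was the 1 member among them. Under knockdown 0.506% of genes were at least 2-fold lower, again with Dnmt3l alone of the members. In differentiated cells 4.77% were lower under knockdown, with Dnmt3l the single member. Since Dnmt3l was listed for being lower, these counts describe it and support nothing. Counted from the lowest log2 ratio, Dnmt3l had rank 33 of 11861 genes under knockdown, rank 89 of 11845 under knockdown in differentiated cells, and ranks 143 and 142 of 11538 in Yap1_KO1 and Yap1_KO2. Without small RNA rows the ranks were 7 of 11750, 58 of 11745, and 114 and 111 of 11444. Across genes, which are not independent replicates, log2 ratios in the knockout-labelled libraries ran against transcript GC content (Spearman rho -0.560 and -0.564), and the part of GC content was not tested beyond this trend. With that trend removed Dnmt3l had log2 ratios of -1.02 and -1.04.

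The catalytic partners differed in direction between the comparisons. Dnmt3a was at 37.6 and 42.3 FPKM in Yap1_KO1 and Yap1_KO2 against 30.3 in ESC, above all 3 controls, and at 14.3 in Yap1_KD1 against 17.9 in Control, below all of them. The log2 ratios were 0.30 and 0.47 on the knockout-labelled side and -0.31 under knockdown. In differentiated cells Dnmt3a was at 35.3 FPKM under knockdown against 16.6, a 2.13-fold higher level and a log2 ratio of 1.05. Genes at least 2-fold higher there made up 1.71% of 11845 genes, and Dnmt3a was the 1 member among them. With a pseudocount of 5 its log2 ratio was 0.90, under the 2-fold mark.

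Dnmt3b was at 46.9 and 64.8 FPKM in the knockout-labelled libraries against 65.8 in ESC, within the range of the controls. It was at 19.3 under knockdown against 31.1, a log2 ratio of -0.66, and lay below all 3 undifferentiated controls. In the differentiated pair it was higher under knockdown, 250 against 149 FPKM, a log2 ratio of 0.74. Overexpression gave the highest Dnmt3b level of the undifferentiated libraries, 99.3 FPKM against 46.7 in BirA (2.13-fold, log2 ratio 1.07). Genes at least 2-fold higher in Yap1_OE made up 1.6% of 11599, and Dnmt3b was the 1 member of 7 that could be counted. Its distance from BirA was about that of ESC from Control (log2 ratio of Control over ESC -1.06), although Yap1_OE stood above each control.

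The level of the cofactor relative to its partners therefore differed widely. Dnmt3l over the sum of Dnmt3a and Dnmt3b was 3.44 in BirA, 1.89 in ESC and 3.51 in Control. It was 0.964 and 0.765 in Yap1_KO1 and Yap1_KO2, 1.82 in Yap1_KD1 and 2.61 in Yap1_OE. The knockout-labelled libraries and Yap1_KD1 lay under the lowest control, Yap1_KD1 only just. In differentiated cells the ratio was 0.793 in dESC_control and 0.101 in dESC_Yap1_KD1, the lowest of the 9 libraries. There, Dnmt3l was the fifth of the 8 genes by level, below Dnmt3a, while in BirA and Control it was the first.

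**Figure D2:**
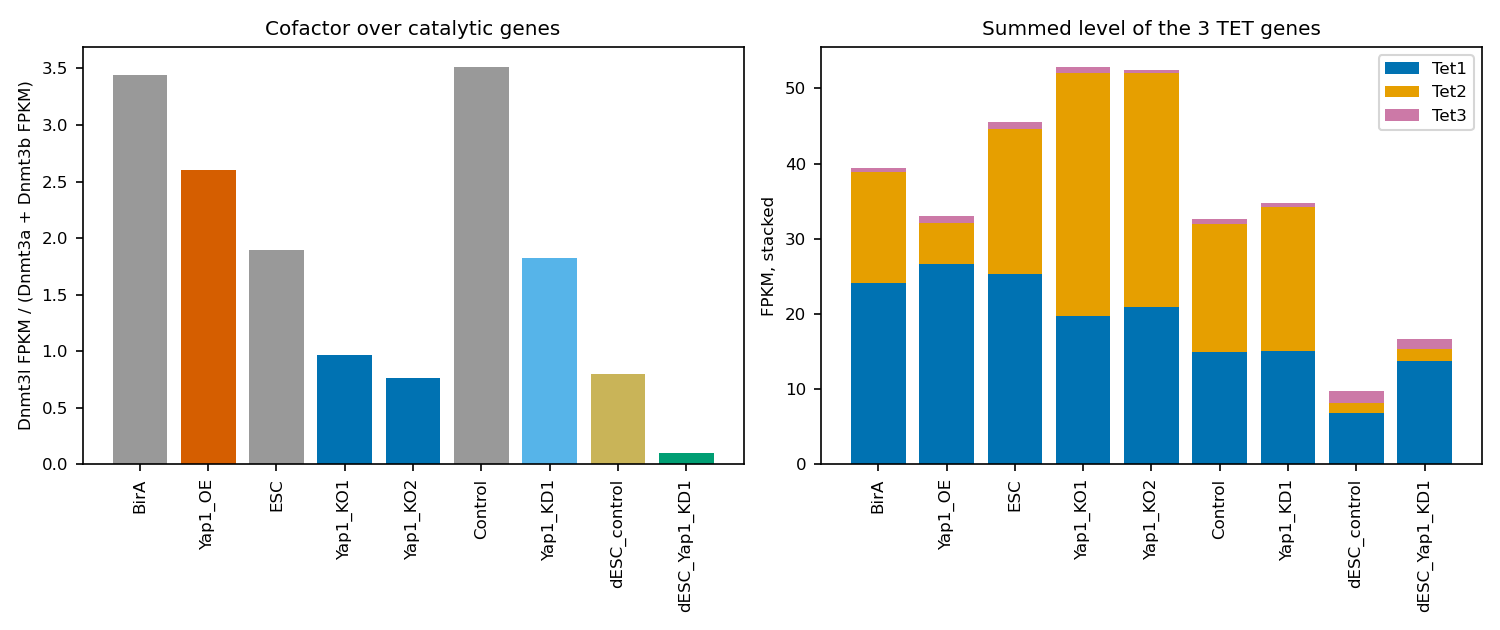
Left, Dnmt3l over the sum of Dnmt3a and Dnmt3b (ratio of FPKM, axis from 0) in each library; right, FPKM of Tet1, Tet2 and Tet3 stacked in each library. The ratio is 3.44, 1.89 and 3.51 in the undifferentiated controls and 0.101 in dESC_Yap1_KD1, and the TET sum is 9.71 and 16.7 FPKM in the differentiated libraries.

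Among the TET genes, Tet2 differed most. In Yap1_OE it stood at 5.55 FPKM against 14.8 in BirA, 37.5% of the control and below all 3 undifferentiated controls, with a log2 ratio of -1.27. Genes at least 2-fold lower there made up 2.35%, and Tet2 was the 1 member among them; with a pseudocount of 5 its log2 ratio was -0.91. In the knockout-labelled libraries Tet2 was higher, 32.4 and 31.03 FPKM against 19.4, above all 3 controls and with log2 ratios of 0.71 and 0.65. With the GC trend removed these were 0.55 and 0.49. In Yap1_KD1 it was 19.2 FPKM against 17.0, within the controls' range.

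Tet1 was at 26.6 FPKM in Yap1_OE against 24.1, at 19.7 and 20.96 in the knockout-labelled libraries against 25.3, and at 15.1 in Yap1_KD1 against 14.9. Its log2 ratios were 0.13, -0.35 and -0.26, and 0.01. Against the mean of the 3 controls the knockout-labelled pair had a log2 ratio of -0.04, so its distance rests on ESC as the control. Tet2 over Tet1 was 0.613, 0.767 and 1.14 in BirA, ESC and Control. It was 0.209 in Yap1_OE and 1.65 and 1.48 in Yap1_KO1 and Yap1_KO2, outside the controls on opposite sides, and 1.27 in Yap1_KD1. With the GC trend removed the log2 ratios of Tet1 in the knockout-labelled libraries were -0.57 and -0.48. In differentiated cells Tet1 was at 13.8 FPKM under knockdown against 6.82 (log2 ratio 0.92), and Tet2 at 1.53 against 1.34. Tet3, the TET enzyme of the oocyte and zygote, was under 1 FPKM in every undifferentiated library and was not counted in their comparisons; it was 1.34 FPKM under knockdown against 1.55 in differentiated cells.

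Markers of cell state moved with some of these results. The early differentiation markers (14 genes, Krt18 and Krt8 the most abundant in Yap1_OE) summed to 237 FPKM in Yap1_OE against 66.1 in BirA, and to 33.5 to 66.1 in the other undifferentiated libraries. Under knockdown in differentiated cells they summed to 313 against 1474 in dESC_control, while ES cell markers summed to 3267 against 2165. Krt18 (102 against 832 FPKM) and Krt8 (65.3 against 486) carried most of that sum, and the epiblast markers Otx2 (80.99 against 24.03) and Fgf5 (23.3 against 16.6) on the same list were higher under knockdown. Their part in the differences of Dnmt3a, Dnmt3b, Dnmt3l, Tet1 and Tet2 was not tested. In bulk RNA, fewer cells that express a gene and less RNA per cell cannot be told apart.

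**Figure D3:**
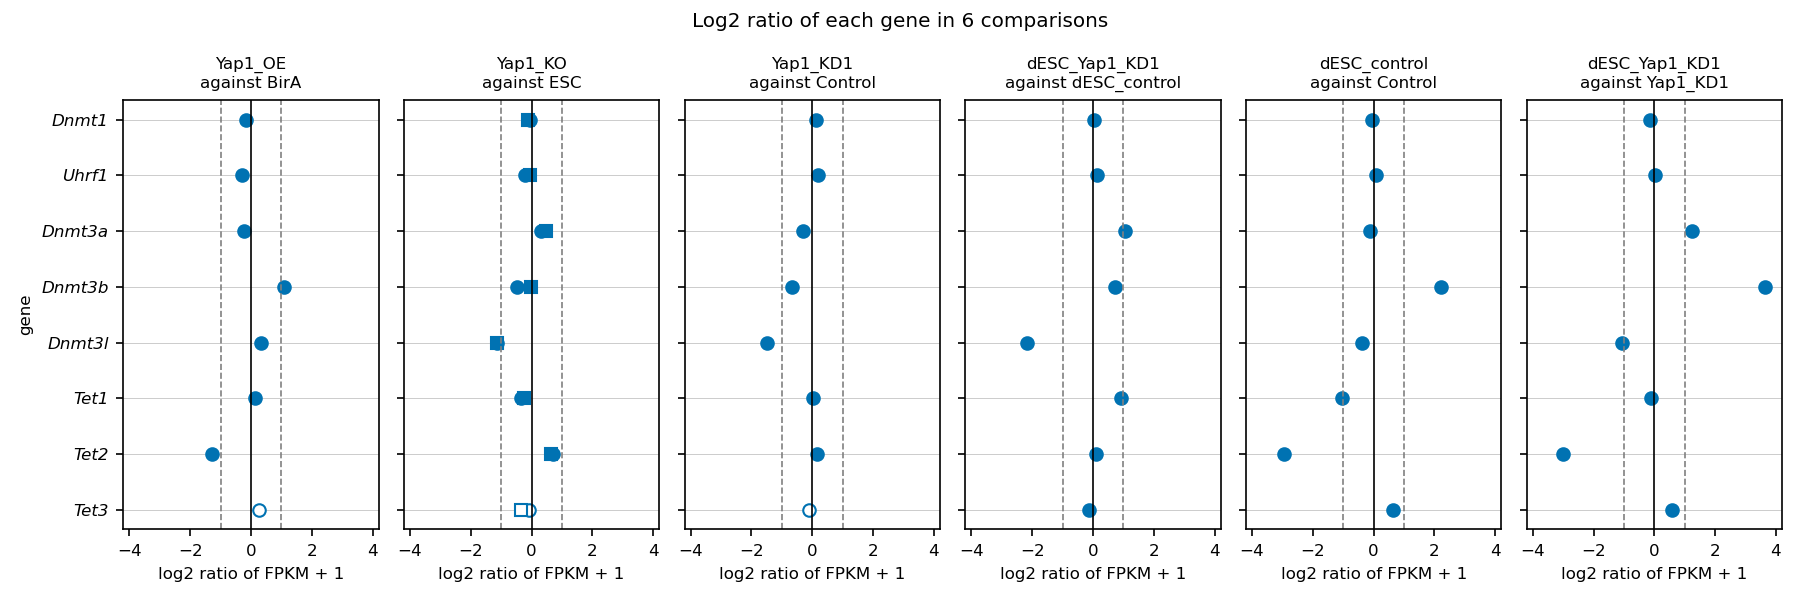
Log2 ratio of FPKM + 1 (horizontal axis) of each gene in 6 comparisons; circles are single libraries, squares are Yap1_KO2, open symbols are genes under 1 FPKM in the compared libraries, and dashed lines mark 2-fold. Dnmt3l is left of the lower dashed line in all 3 comparisons with reduced Yap1 or a knockout label, while Dnmt1 and Uhrf1 stay near 0.

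The stated rule for the members names Yap1 loss and not differentiation, so differentiation was tested, with limma over 4 libraries, Control, Yap1_KD1, dESC_control and dESC_Yap1_KD1, with knockdown as a term. The members and the gene lists were nevertheless chosen with earlier results of these libraries known, so the calls are not independent evidence of a direction. This fit has 1 residual degree of freedom, and the labels do not name separate cultures. That 1 degree of freedom is how far the change in the control pair differs from that in the knockdown pair. Limma moderates it with the spread over all genes. It mixes a different response of the knockdown cells with scatter between libraries, which may be technical. The p-values therefore do not measure scatter between replicate cultures. Of 12719 genes 38.9% passed (20.3% rose and 18.6% fell), so passing is a common outcome here. The knockdown and differentiation comparisons share Control and other libraries, so their values stand side by side and are not independent. Dnmt3b rose and Tet2 fell, and 6 members did not pass.

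Dnmt3b was at 149 FPKM in dESC_control against 31.1 in Control and at 250 in dESC_Yap1_KD1 against 19.3 in Yap1_KD1, 4.80-fold and 13.0-fold higher. Both differentiated libraries lay above all 7 undifferentiated ones. The limma log2 change was 2.93 with a standard error of 0.37 (Benjamini-Hochberg adjusted p = 0.0175). Tet2 was at 1.34 FPKM against 17.0 and at 1.53 against 19.2, 7.88% and 7.99% of the undifferentiated library, and below all 7 undifferentiated libraries. Its log2 change was -2.97, with a standard error of 0.14 (limma, adjusted p = 0.0121). Of all genes counted, 13.1% were at least 2-fold higher and 10.1% lower in dESC_control than in Control, among them Dnmt3b on the higher side and Tet1 and Tet2 on the lower. In dESC_Yap1_KD1 against Yap1_KD1 these shares were 10.3% and 10.4%, with Dnmt3a and Dnmt3b higher and Dnmt3l and Tet2 lower. With a pseudocount of 5, Dnmt3l (log2 ratio -0.97) in this pair and Tet1 (-0.76) in the control pair were no longer 2-fold lower. Both calls were lost without a filter on low values (limma, adjusted p = 0.0726 for Dnmt3b and 0.0634 for Tet2). They were also lost when Control (both 0.110) or Yap1_KD1 (both 0.133) was left out and the knockdown term with it, settings in which limma called 0 genes, with 4073 and 3705 at an unadjusted p under 0.05.

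The other members differed between the pairs or fell short of the threshold. Dnmt3l was at 132 FPKM in dESC_control against 172 in Control and at 28.8 in dESC_Yap1_KD1 against 61.0 in Yap1_KD1, lower in both pairs (log2 ratios -0.39 and -1.06). Its limma log2 change was -0.72, with a standard error of 0.20 (adjusted p = 0.0573). It passed in 2 of 13 alternatives, without small RNA rows (limma, adjusted p = 0.0376) and with all 9 libraries (0.0147). In the others the limma adjusted p ran up to 0.992, with 0.147 without a filter, 0.0817 without the mean-variance trend and 0.532 without the knockdown term. Tet1 was at 6.82 against 14.9 and at 13.8 against 15.1, a log2 change of -0.57 (SE 0.26, limma adjusted p = 0.157). Dnmt3a differed by a log2 ratio of -0.11 in the control pair and 1.25 in the knockdown pair (limma change 0.57, SE 0.37, adjusted p = 0.270). Tet3 was 1.55 against 0.657 and 1.34 against 0.553, a log2 change of 0.61 (SE 0.19, limma adjusted p = 0.0760). Tet3 passed the threshold in 4 of 12 alternatives, and it passed the filter at 1 FPKM only through the differentiated libraries. Dnmt1 (-0.10, SE 0.10, limma adjusted p = 0.444) and Uhrf1 (0.05, SE 0.09, limma adjusted p = 0.663) differed least.

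The summed level of the TET genes was 39.4, 45.6 and 32.6 FPKM in BirA, ESC and Control and 9.71 and 16.7 in dESC_control and dESC_Yap1_KD1. Tet1 made up 70.2% and 82.7% of that sum in the differentiated libraries, against 45.8% to 61.1% in the undifferentiated controls. Tet3 made up 16.0% and 8.07%, against 1.34% to 2.01%. Of the de novo enzymes, Dnmt3b over Dnmt3a was 9.02 and 7.10 in the differentiated libraries and 1.74 to 2.17 in the undifferentiated controls. The highest undifferentiated value was 4.62, in Yap1_OE.

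**Figure D4:**
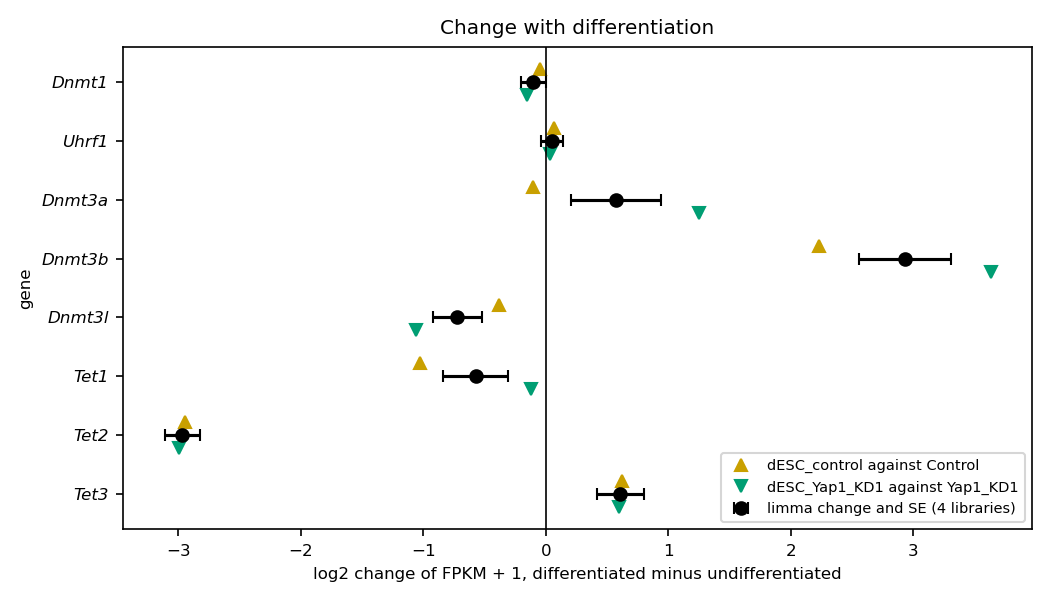
Log2 change of FPKM + 1 between differentiated and undifferentiated cells for each gene; black circles with bars are the limma change and its standard error over 4 libraries, triangles are the ratios of the control pair (up) and the knockdown pair (down). The pairs lie together for Tet2 (-2.94 and -2.99) and apart for Dnmt3a (-0.11 and 1.25).

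The genes around the members were read from 7 lists. Among 13 maintenance and heterochromatin partners 1 rose and 2 fell with differentiation by limma. These are 7.69% and 15.4%, where 20.3% and 18.6% of all genes did, and counts this small do not set the list apart. Zfp57, the zinc finger protein that keeps methylation at imprinted regions, fell from 134 FPKM in Control and 125 in Yap1_KD1 to 30.2 and 29.4 (log2 change -2.08, SE 0.10, adjusted p = 0.0121). Dppa3, which holds UHRF1 back from chromatin, also fell (-1.83, SE 0.18, limma adjusted p = 0.0150), and Ehmt1, a histone H3 lysine methyltransferase, rose (0.65, SE 0.13, limma adjusted p = 0.0330). Among undifferentiated libraries Dppa3 went different ways: it was 9.96 FPKM in Yap1_KD1 against 3.91 in Control, and 0.667 and 3.90 in the knockout-labelled libraries against 5.50 in ESC. It was the 1 gene of this list at least 2-fold higher under knockdown, where 0.506% of all genes were.

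Of 20 measured TET partners and base excision genes, 4 rose and 4 fell with differentiation by limma, close to the shares over all genes (20.3% and 18.6%), so the counts set this list apart in neither direction. One that rose, Slc23a1, reached 1 FPKM in the differentiated libraries only. Cxxc5, a CXXC protein that binds TET2, rose (log2 change 1.40, SE 0.30, adjusted p = 0.0353), from 19.15 to 35.6 FPKM in the control pair and from 16.2 to 65.1 in the knockdown pair. Smug1, a uracil glycosylase of base excision repair, fell (-0.94, SE 0.15, limma adjusted p = 0.0232), and Idh1, which makes the TET cosubstrate oxoglutarate, fell (-0.88, SE 0.12, limma adjusted p = 0.0186). In differentiated cells, where 4.77% of all genes were at least 2-fold lower under knockdown, the stress-induced Gadd45b and Gadd45g were the list's 2 such members of 20, at 31.4 against 119 and 8.58 against 21.2 FPKM. Of the methyl-CpG binding proteins, Mbd3, a NuRD subunit, rose (1.05, SE 0.11, limma adjusted p = 0.0155) and Mbd4, a thymine glycosylase, fell (-0.81, SE 0.14, limma adjusted p = 0.0261), out of 7 measured. That is 14.3% each way, where 20.3% of all genes rose and 18.6% fell, and 1 gene each way does not set the list apart.

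Of 18 genes of one-carbon metabolism and S-adenosylmethionine supply 3 rose and 3 fell with differentiation by limma, 16.7% each way. Over all genes 20.3% rose and 18.6% fell, so the counts set this list apart in neither direction. One that fell, Gnmt, reached 1 FPKM in the undifferentiated libraries only. Mat2a, the catalytic subunit that makes the methyl donor, rose (log2 change 0.80, SE 0.13, limma adjusted p = 0.0233), and Mat2b, its regulatory subunit, fell (-0.68, SE 0.12, limma adjusted p = 0.0274). In Yap1_OE Mat2a was at 94.0 FPKM against 45.3 in BirA, but in ESC it stood at 107. Mat2a was the list's only member at least 2-fold higher in Yap1_OE, where 1.6% of all genes were. Tdh, the threonine dehydrogenase of ES cells, was at 165 FPKM under knockdown in differentiated cells against 52.8.

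Germline genes whose promoters are known to be silenced by DNA methylation were mostly lower in differentiated cells. Of 16 measured, 1 rose (6.25%) and 10 fell (62.5%) by limma, where 20.3% and 18.6% of all genes did. The median log2 change of the list was -1.09 against 0.018 over all genes. Tdrd1, the 1 that rose, and Hormad1 among those that fell reached 1 FPKM in 1 state only, so they could pass only in the direction they did. Mael, of the piRNA pathway, stood at 13.6 and 12.8 FPKM in the differentiated libraries against 37.9 and 43.6 (limma log2 change -1.55, SE 0.13, adjusted p = 0.0137). Under knockdown in undifferentiated cells the median log2 ratio of the germline genes was 0.20 against 0.0092 over all genes. There 0 of 15 were at least 2-fold apart. In the knockout-labelled libraries the median was -0.040 against 0.0061, with their GC trend not removed. Of 14 genes 0 were 2-fold higher and 2 lower there, where 0.191% and 0.979% of all genes were. Those 2, Tex19.1 and Fkbp6, were not 2-fold apart under knockdown. Of ESC, Yap1_KO1 and Yap1_KO2, only ESC reached 1 FPKM of Fkbp6, so Fkbp6 could be counted only as lower.

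Factors of the naive state, several of which hold Dnmt3 genes down, and those of the formative and primed epiblast went opposite ways in some comparisons and the same way in others. With differentiation 20.3% of all genes rose and 18.6% fell by limma. Of 11 naive factors 7 fell (63.6%) and 0 rose, with a median log2 change of -1.37. Of 14 formative factors 1 fell (7.14%) and 7 rose (50%), with a median of 0.70. Of those 7, Fgf5 and Sox3 reached 1 FPKM only in the differentiated libraries and so could pass only by being higher there. Under knockdown in differentiated cells both lists had a median log2 ratio above that of all genes (-0.011). Of 11 naive factors 8 were higher, 4 of them at least 2-fold, with a median of 0.48. Of 14 formative factors 12 were higher, 4 of them at least 2-fold, with a median of 0.41. Over all genes 1.71% were 2-fold higher. The share of all genes merely above or below the control was not counted, here or in the comparisons that follow. In Yap1_OE 10 of 11 naive factors were below BirA, with a median log2 ratio of -0.43 against 0.019 over all genes. Of the formative factors 9 of 13 were above it (median 0.33). Tbx3 was at 16.4 FPKM against 44.8 and Pou3f1, an epiblast transcription factor, at 29.4 against 9.60. In the knockout-labelled libraries 9 of 11 naive factors were above ESC in both, none of them 2-fold. Their list had a median log2 ratio of 0.13 there, against 0.0061 over all genes. The GC trend of the knockout-labelled libraries was not removed from these list values. Prdm14, the repressor of Dnmt3b and Dnmt3l in naive ES cells, stood at 7.25 FPKM in Yap1_OE against 10.9 in BirA, at 22.1 and 19.9 in Yap1_KO1 and Yap1_KO2 against 19.0 in ESC, and at 14.3 in Yap1_KD1 against 9.97 in Control. In dESC_Yap1_KD1 it was 4.63 FPKM against 1.39 in dESC_control. Over the 3 undifferentiated controls Prdm14 itself ran from 9.97 to 19.0 FPKM.

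Genes whose course over the 9 libraries came closest to that of a member were found by the root mean square difference of the centred log2 values over 8273 genes. For Dnmt3l, whose own spread was 1.01 by that measure, the nearest were Pim1 (0.36), Arhgdib (0.45), Ddah1 (0.52), Pim3 (0.60) and Tgm1 (0.61). Pim1, a serine/threonine kinase downstream of STAT3, stood at 68.9, 79.7 and 49.96 FPKM in BirA, ESC and Control. It was 85.5 in Yap1_OE, 30.5 and 30.4 in the knockout-labelled libraries, 33.3 in Yap1_KD1, 63.4 in dESC_control and 14.2 in dESC_Yap1_KD1. Like Dnmt3l, Pim1 was below all 3 controls in Yap1_KO1, Yap1_KO2, Yap1_KD1 and dESC_Yap1_KD1, but in dESC_control Pim1 lay within the range of the controls while Dnmt3l lay below its own. For Tet2 (spread 1.38) the nearest were Rpl10l (0.21), Morc1 (0.26) and Itgb7 (0.31), of which Rpl10l is a near copy of Rpl10 and uncertain. For Dnmt3b (spread 1.05) they were Zfp36l2 (0.31), Bend3 (0.35) and Gpc1 (0.36). Dnmt1 (spread 0.21) lay nearest to Mcm10 (0.04), Mettl3 and Cog7, and Uhrf1 (spread 0.24) to Timeless (0.07), Pcx and Mcm3. Dnmt3a (spread 0.51) lay nearest to Spry2, Atf7ip and Slc7a3, Tet1 (spread 0.54) to Rbmxl2, Zbtb8a and Dlc1, and Tet3 (spread 0.26) to Narfl, Cpxm1 and Napa. Likeness over 9 libraries that include the perturbed ones is a description and says nothing of shared control.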

How the data were processed

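Per the submitters' processing notes, the authors used TopHat2 and Cuffdiff on the build mm9 and deposited 1 table of FPKM values; their versions, the annotation and the strandedness were not given in the sources used here. Cuffdiff scales libraries against each other, and its 0 can be a failed estimate. Blank rows (4746 of 23277) and 27 symbols turned into dates were left out. Columns were matched to samples by title. The members and gene lists were chosen with earlier results of these data known.

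Log2 ratios used log2(FPKM + 1), and a gene was counted where 1 of the compared libraries reached 1 FPKM. With 1 library a group, genes at least 2-fold apart were counted, without a p-value. Differentiation was tested with limma 3.58.1 in R 4.3.3 (mean-variance trend, knockdown term, Benjamini-Hochberg at 0.05). Tested on simulated data (12719 genes, 200 of them changed), the test found 99% of the 2-fold and 100% of the 4-fold changes, with 3.40% of calls false. The simulation held no difference between the pairs and gave genes of like level the same spread. It changed only genes at a mean of about 5 FPKM or more, and a far smaller share than the 38.9% that passed in the data. It does not show how the test does on genes of wider spread, such as Dnmt3a and Dnmt3b, or on low genes such as Tet3. Depth came from shared steps of low values and 112 long genes with 1 transcript. Transcript lengths and GC content came from GENCODE M21 and promoters from RefSeq (GRCm38.p6). GC trends were removed with lowess (span 0.3, statsmodels 0.14.6). Named genes are the members, up to 4 of each list per comparison with the largest log2 ratio at 5 FPKM or more, and the nearest 5 (Dnmt3l) or 3 genes by course; Idh1, Fkbp6 and some Prdm14, Dppa3 and Dazl values fall outside that rule and were chosen after their values were seen. A listed germline gene, Rhox5, was not analysed here.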

Additional observations from a re-analysis of the deposited data

Results flagged for a closer look

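The knockdown went with opposite differences in undifferentiated and differentiated cells for 2 genes. Dnmt3a had a log2 ratio of -0.31 in undifferentiated and 1.05 in differentiated cells, and Dnmt3b -0.66 and 0.74. Dnmt3a also had opposite signs with differentiation, -0.11 in the control pair and 1.25 in the knockdown pair. Each value rests on 1 library against 1, and the differences between the pairs were not tested. The -0.11 and -0.31 of Dnmt3a are smaller than its log2 ratio between Control and ESC, -0.73. Both values of Dnmt3b, -0.66 and 0.74, are smaller in size than its log2 ratio between these undifferentiated controls, -1.06.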

How the results depend on the processing

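Of 46 alternative counts, 38 stayed within 1.5 times the reported one. With a pseudocount of 5 the members at least 2-fold apart numbered 1 in the overexpression comparison and 1 under knockdown in differentiated cells. At 1.5-fold they numbered 2 in the knockout-labelled libraries (Tet2 added), 2 under knockdown (Dnmt3b added) and 4 under knockdown in differentiated cells (Dnmt3b and Tet1 added). Leaving out either knockout-labelled library gave 1 each time, Dnmt3l. Against the mean of the 3 undifferentiated controls, the mean log2 ratio of that pair changed sign for Dnmt1 (-0.07 to 0.20), Uhrf1 (-0.13 to 0.20) and Dnmt3b (-0.25 to 0.26). It kept its sign for Dnmt3l (-1.14 to -1.27), Dnmt3a (0.38 to 0.71), Tet2 (0.68 to 0.86), Tet1 (-0.30 to -0.04) and Tet3 (-0.21 to -0.03). With the GC trend removed Tet1 was no longer 2-fold lower in dESC_control (log2 ratio -0.90); with a pseudocount of 5 neither was Tet1 there (-0.76) nor Dnmt3l in dESC_Yap1_KD1 against Yap1_KD1 (-0.97). Without a filter on low values limma called 0 genes with differentiation, with 7450 at an unadjusted p under 0.05; leaving out single libraries gave 0 to 5974. The limma change of Uhrf1 turned to -0.25 with all 9 libraries, -0.038 without Control and -0.022 without dESC_Yap1_KD1, and that of Dnmt3a to -0.10 with all 9 libraries. That of Dnmt3l turned to 0.018 without Control and 0.35 without dESC_Yap1_KD1, fits that also lack the knockdown term and were chosen after seeing the data. Dnmt3b and Tet2 each passed in 10 of 13 alternatives, with log2 changes of 2.17 to 3.30 and -3.57 to -1.84. Dnmt3a passed without dESC_control (limma, adjusted p = 0.0113), Tet1 without dESC_Yap1_KD1 and with all 9 libraries. Below 1 FPKM Tet3 has no GC-corrected value. No paired analysis was possible because the groups compared share fewer than 2 replicate numbers, so no block by number could be fitted. The main differentiation test does compare within control and within knockdown cells through its knockdown term; without that term limma called 5006 genes. Counting error, on a rough estimate of depth, reached 11.98% for Tet3.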

Other observations

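Tex19.1 and Fkbp6, germline genes chosen after their values were seen, were lower in both knockout-labelled libraries and not under knockdown. Tex19.1, a retrotransposon-restricting gene, stood at 22.6 and 25.6 FPKM in Yap1_KO1 and Yap1_KO2 against 54.3 in ESC, and at 53.6 in Yap1_KD1 against 55.7 in Control. Fkbp6, of the piRNA pathway, stood at 0.297 and 0.217 against 3.44, and at 4.21 against 2.34. BirA, an undifferentiated control, had 0.687 FPKM of Fkbp6, so that gene also varied between controls. Dazl, a germ cell RNA-binding protein gene, stood at 6.45 and 7.50 FPKM against 4.28 and at 9.16 against 4.85, above its control in all 3 libraries. It also varied between the undifferentiated controls, from 1.89 FPKM in BirA to 4.85 in Control.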
